A study of Mus musculus with 4 samples.

Results

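The acid, chloride and bicarbonate transporters described here are the mouse protein-coding genes whose symbols begin with Slc4a, Slc9a, Slc12a or Slc26a. The symbols pick 42 of 21631 protein-coding genes on the chromosomes that carry peaks, namely 11 Slc4a, 11 Slc9a, 9 Slc12a and 11 Slc26a genes. The symbol rule also takes 3 genes that encode no transporter: the scaffold proteins of Slc9a3r1 and Slc9a3r2 and the adaptor of Slc4a1ap. The other 39 were divided by judgement, from the tissue in which each is known to be used, with earlier results of these data known. The division gave 10 genes with a known use in the gut epithelium, 9 genes used in most cell types and 20 known mainly from other organs. Those organs include kidney, nerve, stomach, inner ear, testis and red cells. The groups are not exclusive, since genes of the gut epithelial group such as Slc26a2 are also used elsewhere.

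Chromatin accessibility was measured by ATAC-seq, in which the Tn5 transposase cuts and tags open DNA, in wild-type mouse colonic organoids, which are cultures of epithelium alone grown here in medium with EGF, Noggin, R-spondin and Wnt. The 4 groups were colitis organoids given 10 µM T-5224, an inhibitor of the transcription factor AP-1, for 24 h, colitis organoids given 0.1% DMSO for 24 h, and organoids from healthy control mice given 10 µM T-5224 or 0.1% DMSO for the same time. Each group held 1 library, and all 4 carry the batch label DSS33. The design text calls the colitis chronic, the labels do not spell out what DSS stands for or otherwise say how the colitis was induced, and the organoids were frozen after treatment and thawed before their nuclei were taken. The data used here were 1 deposited list of peaks for the series, without values per library or a statement of which libraries entered it, so neither T-5224 with DMSO nor colitis with control organoids could be compared, and no value below has a replicate or a p-value.

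Epithelia move salt and acid by pairing these carriers. In colonic surface cells a sodium-proton exchanger of the Slc9 family and a chloride-bicarbonate exchanger of the Slc26 family work side by side in the apical membrane and together take up sodium chloride, while Slc4 carriers in the basolateral membrane bring in or export bicarbonate. Crypt cells secrete chloride that the sodium-potassium-chloride cotransporter Slc12a2 has loaded from the blood side, and potassium-chloride cotransporters of the Slc12 family let chloride and potassium out again when cells swell. The same 4 families serve acid secretion in the stomach, salt recovery in the kidney, the chloride balance of neurons and hearing.

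Sequences at listed gene starts are shown first, since the main absorptive genes differ in base composition there. The stretches below run from 250 bases before to 50 after the start in RefSeq on GRCm38.p6 (the assembly behind mm10), are read 5′ to 3′ on the gene's strand, and carry motif matches in capitals. The first 3 belong to gut epithelial genes with an open start: Slc26a3 at chr12:31437969-31438268 (plus strand), Slc9a3 at chr13:74121163-74121462 (plus strand) and Slc9a8 at chr2:167421460-167421759 (plus strand). The other two have no called summit within 1000 bp and stand for contrast: Slc26a5, a gene of the inner ear, at chr5:21865555-21865854 (minus strand) and Slc4a10, a gene of neurons, at chr2:62046265-62046564 (plus strand).
Slc26a3: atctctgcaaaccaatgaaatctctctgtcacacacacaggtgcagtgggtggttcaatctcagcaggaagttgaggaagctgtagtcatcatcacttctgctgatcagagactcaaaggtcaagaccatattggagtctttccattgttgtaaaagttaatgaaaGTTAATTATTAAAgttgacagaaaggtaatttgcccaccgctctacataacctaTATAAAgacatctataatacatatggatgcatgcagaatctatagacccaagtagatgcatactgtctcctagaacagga
Slc9a3: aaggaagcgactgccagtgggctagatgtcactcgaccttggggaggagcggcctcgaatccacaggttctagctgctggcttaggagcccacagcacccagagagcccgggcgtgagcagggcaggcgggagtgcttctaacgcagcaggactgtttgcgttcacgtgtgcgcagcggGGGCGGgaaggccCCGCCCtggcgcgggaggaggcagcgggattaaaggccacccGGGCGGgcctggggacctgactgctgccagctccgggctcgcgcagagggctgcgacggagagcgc
Slc9a8: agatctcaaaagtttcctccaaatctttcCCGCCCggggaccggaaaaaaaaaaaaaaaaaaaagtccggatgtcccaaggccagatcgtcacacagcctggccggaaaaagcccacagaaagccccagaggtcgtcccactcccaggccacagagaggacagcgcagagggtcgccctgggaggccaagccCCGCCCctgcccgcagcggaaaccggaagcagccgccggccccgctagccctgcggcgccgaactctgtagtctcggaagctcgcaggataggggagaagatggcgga
Slc26a5: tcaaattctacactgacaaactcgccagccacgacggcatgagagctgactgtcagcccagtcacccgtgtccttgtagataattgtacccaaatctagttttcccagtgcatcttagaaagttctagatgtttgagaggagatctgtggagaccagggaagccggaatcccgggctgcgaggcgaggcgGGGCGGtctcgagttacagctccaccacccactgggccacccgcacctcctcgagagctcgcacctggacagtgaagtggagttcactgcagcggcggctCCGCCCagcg
Slc4a10: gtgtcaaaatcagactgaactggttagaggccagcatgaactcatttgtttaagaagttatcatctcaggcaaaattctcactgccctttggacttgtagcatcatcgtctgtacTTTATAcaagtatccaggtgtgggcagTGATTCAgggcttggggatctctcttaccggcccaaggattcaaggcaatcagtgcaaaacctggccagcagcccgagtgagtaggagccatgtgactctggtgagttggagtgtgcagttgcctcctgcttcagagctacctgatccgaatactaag
The capitals mark the TATA box TATAAA and an HNF1 match in Slc26a3, the GC box GGGCGG or its reverse complement CCGCCC in Slc9a3, Slc9a8 and Slc26a5, and the AP-1 motif TGANTCA and a TATA box on the opposite strand in Slc4a10.

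The Slc26a3 stretch was poor in G and C (39.3%, with 1 CpG), whereas those of Slc9a3 (68.7%, with 25 CpG) and Slc9a8 (61.3%, with 22 CpG) were rich, against a median of 56.7% and 13 CpG over 21045 promoters of protein-coding genes. All 300 bases lay inside called regions in each of these 3 genes, and none did in Slc26a5 or Slc4a10. The Slc26a5 stretch was only slightly above that median (58.0%, with 18 CpG) and also holds GC boxes. GC boxes were thus found at starts with a summit and at one without. The palindromic HNF1 motif, GTTAAT and ATTAAC around 1 free base, is bound by a homeobox factor of gut, liver and kidney and matched 1 of 21045 promoters exactly. With at most 1 letter different, a search chosen after the Slc26a3 stretch had been seen, it matched 39 (0.185%), and Slc26a3 was the only one of the 30 members with a listed start that held such a match.

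The promoter table lists 39 starts for those 30 members. The AP-1 motif TGANTCA, which is its own reverse complement when N is left free, was found in 5 of the 39 stretches (12.8%), against 7.04% of all promoters. They belong to Slc4a10, Slc12a5, Slc26a1, Slc9a9 and Slc9a3r2, of which none is in the gut epithelial group. That group has only 9 of the 39 stretches, so few that a lack of matches there says little. The CRE motif TGACGTCA and the HNF4 motif CAAAGTCCA, each on both strands, were found in 0 of 39 stretches, against 2.26% and 0.456% of promoters, and the exact HNF1 motif in 0 of 39. The CDX motif TTTATGG was found in 2 of 39, in Slc26a4 and Slc12a8, against 2.28%. A GC box was found in 20 of 39 (51.3%, against 46.7%), and a TATA box in 9 of 39 (23.1%, against 12.7%), both strands being searched. No pair of these motifs overlaps in the stretches shown, and a match is a matter of letters, not of binding.

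Most of the transporter genes had open chromatin, and the gut epithelial ones stood highest by their median. The groups were not drawn blind to these data. Accessibility is given as the authors' fold enrichment at a summit over the expected background of the peak call, a height of the peak and not an RNA level, with a 95% interval that covers counting error only. A summit lay inside the gene or within 1000 bp of it in 40 of 42 members (95.2%, Wilson interval 84.2 to 98.7%), against 74.5% of all protein-coding genes. The members are longer than most genes, with a median of 52.1 kb against 17.3 kb, which leaves more room for a summit. In bulk material a site open in few cells and a site weakly open in many cannot be told apart. The strongest summit had a median of 35.2-fold in the 10 gut epithelial genes, 24.6-fold in the 9 broadly used genes and 16.9-fold in the 20 genes of other organs, where genes without a summit count as 0. The median over all protein-coding genes was 17.4-fold, so the genes of other organs were close to the background. Each value is the highest of all summits of a gene. The median number of such summits was 12, 4 and 6 in these groups, against 3 over all genes. Its part in the heights was not tested.

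The groups overlapped. Gut epithelial genes ran from 24.1-fold to 68.3-fold, broadly used genes from 4.06-fold to 38.7-fold, and genes of other organs up to 56.5-fold. A summit of 20-fold or more, a limit chosen after the values were seen, was present in 10 of 10 gut epithelial genes, 6 of 9 broadly used genes and 9 of 20 genes of other organs, against 47.1% of all protein-coding genes. Several of the high values stand where a second gene begins or ends. When summits within 1000 bp of an outer end or listed start of another protein-coding gene were left out, 39 of 42 members still had one, against 70.3% of all protein-coding genes. The medians were then 35.0-fold, 24.6-fold and 14.1-fold, against 9.39-fold over all protein-coding genes, and 10 of 10, 5 of 9 and 7 of 20 genes had 20-fold or more, against 36.3%. These are counts over genes of 1 peak list, with no test between the groups.

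**Figure D1:**
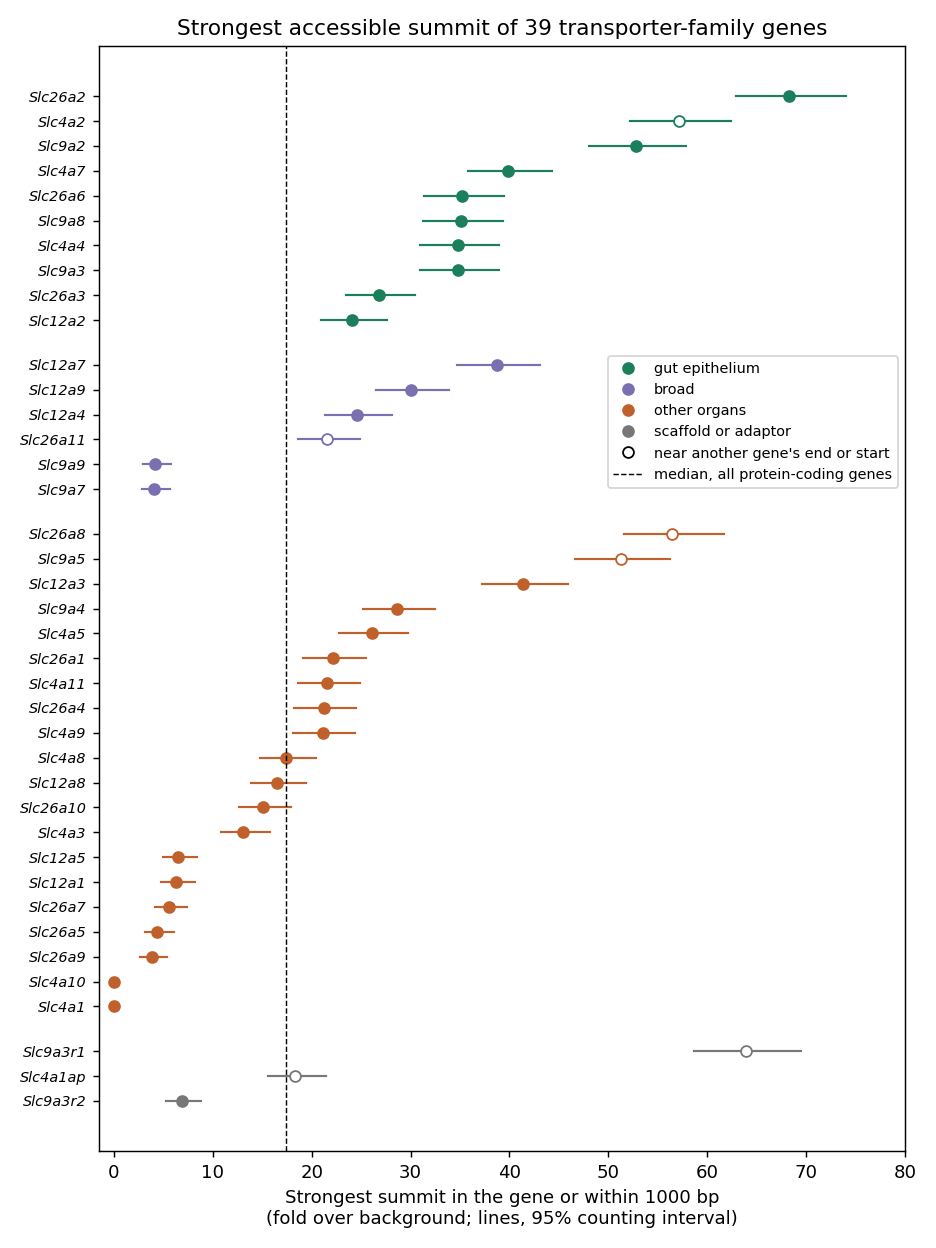
Strongest summit of 39 of the 42 genes, inside the gene or within 1000 bp (horizontal axis, fold over background, linear), grouped by the tissue of known use. Lines are 95% counting intervals, open circles mark summits within 1000 bp of another protein-coding gene's end or start, and the dashed line is the median of all protein-coding genes (17.4-fold). All 10 gut epithelial genes lie right of the dashed line, whereas genes of other organs spread from 0 to 56.5-fold.

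Among the apical sodium-proton exchangers, Slc9a2 (NCBI Gene 226999, on chromosome 1 from 40681712 to 40768885) was the most open. Its strongest summit, 52.8-fold (48.0 to 57.8), lay 27.8 kb inside the gene, against 27.9-fold (24.5 to 31.7) at its lower outer end. Slc9a3, the exchanger that carries most sodium absorption in the gut, had 34.8-fold (31.0 to 38.9) within its outer bounds. At its listed start it had 13.7-fold. That start lies 35.2 kb inside the outer bounds of the gene, and neither outer end had a summit. The 34.8-fold summit lies 16.0 kb from the lower bound, so on this plus-strand gene it stands before the listed start. Slc9a8, an exchanger of the apical membrane and the Golgi, had 35.1-fold (31.3 to 39.3) within the gene and 27.9-fold (24.5 to 31.7) at its start. The strongest summits of Slc9a2 and Slc9a3 were thus above those at their starts or ends beyond the counting intervals. The intervals for Slc9a8 overlapped.

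Among summits in the gene or within 1000 bp, those of the apical anion exchangers were strongest at starts or ends. Slc26a3 (NCBI Gene 13487, chromosome 12, 31433142 to 31473922), known as DRA, the chloride-bicarbonate exchanger of the colon surface whose loss in humans causes chloride diarrhoea, had 26.8-fold (23.4 to 30.5) at a summit 242 bp before its listed start, inside the sequence printed above. A stronger region, of 31.7-fold (28.0 to 35.6), lay 32.1 kb outside the gene. Slc26a6, an exchanger of chloride, oxalate and bicarbonate known mostly from the small intestine and kidney, had 35.2-fold (31.4 to 39.4) 42 bp after its start. Slc26a2, a sulfate transporter known from cartilage and abundant in the colon, had the highest value of all members, 68.3-fold (62.9 to 74.0), 25 bp from its upper outer end.

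Carriers of the basolateral membrane were open as well. Slc4a2, a chloride-bicarbonate exchanger, had 57.2-fold (52.2 to 62.4), but this summit also lies within 1000 bp of Cdk5, a kinase gene, and the strongest summit away from other genes was 31.5-fold. At the starts listed for Slc4a2 itself the value was 11.6-fold. Slc4a7, a sodium-bicarbonate cotransporter, had 39.9-fold (35.8 to 44.3) 157 bp from its lower outer end and no summit at its listed start, 15.8 kb inside the gene. Slc4a4, the electrogenic sodium-bicarbonate cotransporter, had 34.8-fold (31.0 to 38.9) 92.2 kb from the nearest of its ends and listed starts, 16.1-fold at the first listed start and none at the second. Slc12a2, the sodium-potassium-chloride cotransporter of secreting cells, had the lowest value of the group, 24.1-fold (21.0 to 27.6), 116 bp from an outer end.

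The scaffolds of the apical exchangers differed. Slc9a3r1, which encodes NHERF1, the scaffold that ties Slc9a3 to the brush border, had 63.9-fold (58.7 to 69.4) at its start, a place also within 1000 bp of Rab37, and 35.4-fold away from any other gene. Called regions covered 60.4% of this gene, the highest share of the 42 members. Slc9a3r2, the related scaffold NHERF2, had 6.84-fold (5.22 to 8.81). Slc4a1ap had 18.3-fold (15.6 to 21.4) within 1000 bp of both its start and Supt7l, and no summit of its own away from that gene.

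Of the broadly used carriers, the potassium-chloride cotransporter gene Slc12a7 was the most open, with 38.7-fold (34.7 to 43.1) 22 bp from a listed start. Slc12a4, which encodes another such cotransporter, had 24.6-fold. Slc12a9, a related gene, had 30.0-fold (26.5 to 33.9) at its start. Slc26a11 had 21.6-fold at an end shared with Sgsh, a lysosomal enzyme gene, and 8.35-fold elsewhere. The lowest values of the group belonged to exchangers of endosomes and Golgi, with 4.17-fold at Slc9a9 and 4.06-fold at Slc9a7.

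Genes known from other organs ranged from strongly open to closed. The 2 highest values stood beside neighbours. Slc26a8, an anion transporter of sperm, had 56.5-fold (51.6 to 61.7) 5 bp from its own upper outer end. That summit is also within 1000 bp of Mapk14, which encodes the p38 MAP kinase. Away from other genes Slc26a8 had 7.42-fold, at its listed start. Slc9a5, an exchanger of the brain, had 51.2-fold (46.6 to 56.2) at its own listed start and 5.68-fold away from other genes. The 51.2-fold summit is also within 1000 bp of Fhod1. The next ones had no other protein-coding gene within 1000 bp of the summit. Slc12a3, the thiazide-sensitive cotransporter of the kidney, had 41.4-fold (37.2 to 45.9) inside the gene, 11.9 kb from its upper outer end. No summit was called at its listed start, which lies near the lower outer end. Slc9a4, an exchanger of the stomach, had 28.6-fold (25.2 to 32.4) at a summit 0.70 kb outside its upper end. The strongest region inside Slc9a4 had 11.1-fold.

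Intermediate values were found at Slc4a5 (26.1-fold), Slc26a1 (22.1-fold), Slc4a11 (21.6-fold), Slc26a4 (21.2-fold) and Slc4a9 (21.1-fold). Slc4a8 (17.4-fold), Slc12a8 (16.5-fold), Slc26a10 (15.1-fold) and Slc4a3 (13.1-fold) were at or below the median of all genes. The lowest called values belonged to Slc12a5, the chloride extruder of neurons (6.49-fold), Slc12a1, the loop diuretic target of the kidney (6.26-fold), Slc26a7 of stomach and kidney (5.56-fold), Slc26a5, the motor protein prestin of outer hair cells (4.41-fold), and Slc26a9 of stomach and airway (3.83-fold). Slc4a10, a bicarbonate transporter of neurons, and Slc4a1, the anion exchanger of red cells, had no summit in the gene or within 1000 bp. The nearest summit lay 64.4 kb outside Slc4a10 and 1.74 kb outside Slc4a1, where it had 3.13-fold and missed the limit narrowly.

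Looking at gene ends alone, 35 of 42 members (83.3%, 69.4 to 91.7%) had a summit at most 1000 bp from either outer bound, against 64.3% of all protein-coding genes. The medians were 27.9-fold in gut epithelial genes, 10.2-fold in broadly used genes and 5.74-fold in genes of other organs, against 9.62-fold over all genes. At a listed start, which is known for 30 members, a summit was called in 22 (73.3%, 55.6 to 85.8%), against 64.5% of genes with a listed start, a share within that interval. Among them were 6 of 7 gut epithelial genes, 5 of 5 broadly used genes and 8 of 15 genes of other organs. The 7 without one were Slc26a9, Slc4a10, Slc12a1, Slc26a5, Slc4a5, Slc12a3 and Slc26a10. Of these, Slc4a5 and Slc12a3 had interior summits above 20-fold.

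Away from gene ends, gut epithelial genes had the most regions. A region was counted here when its strongest summit lay more than 1000 bp from the outer end of any protein-coding gene, and it was given to the nearest such end within 100 kb. By this rule 302 regions belonged to 39 of 42 members (1 or more regions were assigned to 69.6% of all protein-coding genes), and 203 of them lay inside the member, 96 between genes and 3 inside another gene. Inside here means between the outer bounds, which can include stretches before a listed start, as at Slc9a3. Slc26a6, Slc9a7 and Slc4a10 had no assigned region. The median number per gene was 13.5 in the gut epithelial group, 4 in the broadly used group and 4 in the other-organ group, against 2 over all genes. At least 10 regions, a limit also chosen after the values were seen, were assigned to 7 of 10, 1 of 9 and 2 of 20 genes, against 11.9%.

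The groups also differ in gene length. The median length was 63.7 kb for gut epithelial genes, 54.7 kb for broadly used genes, 39.6 kb for genes of other organs and 17.3 kb for all protein-coding genes. Divided by gene length, the number of assigned regions had medians of 17.8, 8.26, 12.9 and 7.28 per 100 kb in the same order. This ratio is not a density within genes, because only 203 of the 302 regions lay inside their member. Slc4a1, for example, had 36.4 per 100 kb with 0% of its length in called regions. Broadly used genes and genes of other organs had the same median number but differed in this ratio. Called regions covered a median of 11.5% of the length of gut epithelial genes, 5.66% of broadly used genes, 5.43% of genes of other organs and 4.51% of all protein-coding genes. Within the gut group the covered share ran from 1.52% in Slc26a6 to 39.1% in Slc4a2.

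**Figure D2:**
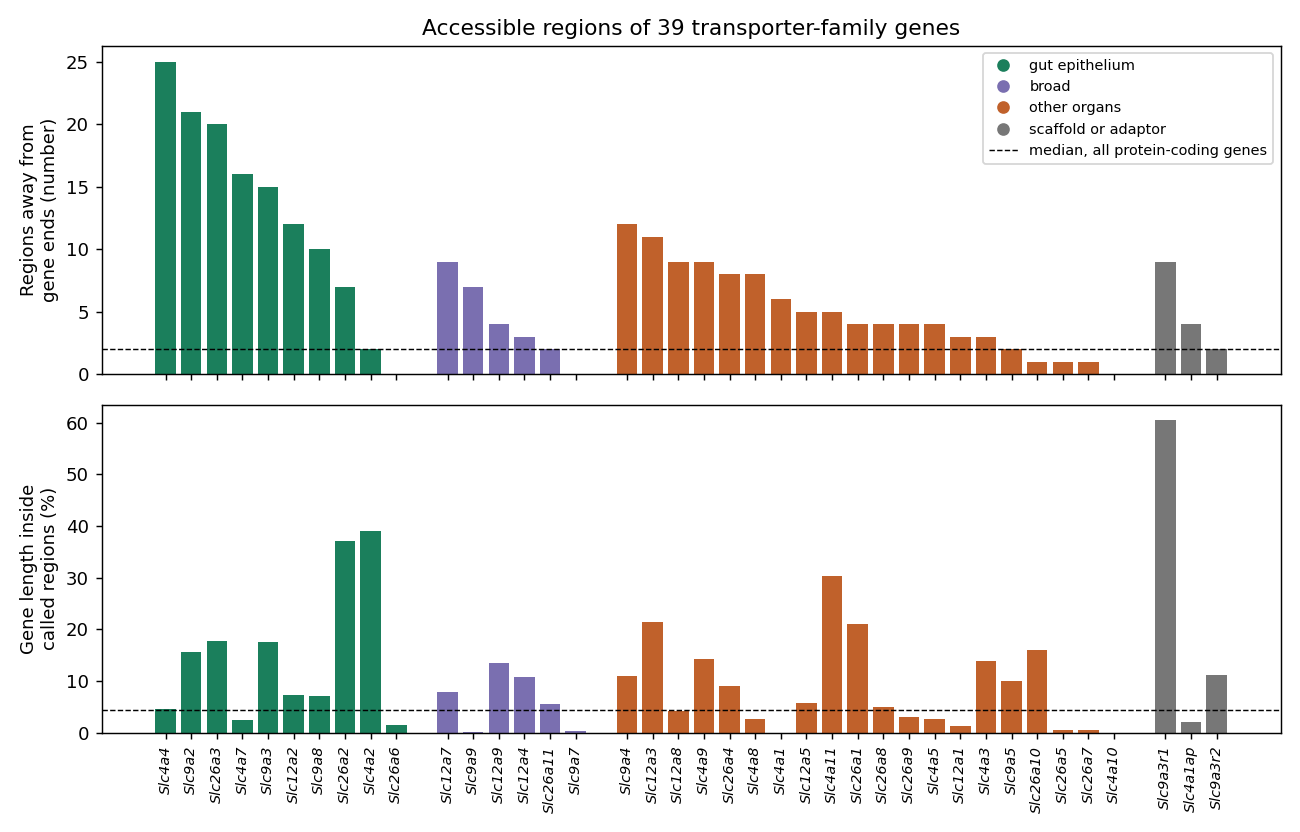
Number of regions away from gene ends assigned to each of 39 of the 42 genes (upper panel) and percent of the gene's length inside called regions (lower panel), by the tissue of known use. Each bar is 1 gene and dashed lines are medians over all protein-coding genes (2 regions and 4.51%). Of the genes shown, Slc4a4 has the most regions, 25, and Slc9a3r1 has the largest covered share, 60.4%.

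Among the gut epithelial genes, Slc4a4 had 25 regions, Slc9a2 had 21, Slc26a3 had 20 and Slc4a7 had 16. Their regions had medians of 4.99-fold at Slc4a4, 5.56-fold at Slc9a2, 6.09-fold at Slc26a3 and 6.09-fold at Slc4a7. A fold of 20 or more was reached by 3 of 25 regions at Slc4a4, 4 of 21 at Slc9a2, 4 of 20 at Slc26a3 and 3 of 16 at Slc4a7. The 128 regions of gut epithelial genes had a median of 5.97-fold, the 59 of broadly used genes 3.94-fold and the 100 of genes of other organs 4.75-fold, against 4.64-fold over all 86425 regions of this kind. A fold of 20 or more was reached by 15.6%, 10.2% and 7.0% of them, against 8.72% of all such regions. More than 1 summit was called in 26.6% of the regions of gut epithelial genes, 22.0% of those of broadly used genes and 9.0% of those of other-organ genes, against 17.8%.

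The strongest of the 302 regions, 57.9-fold (52.9 to 63.2), was nearest to Slc4a9, an anion exchanger of the kidney, at chromosome 18, 36524996 to 36526568. It lies between genes, 2.24 kb from Slc4a9 and 10.0 kb from Hbegf, which encodes a ligand of the EGF receptor, so its assignment rests on distance alone. Slc9a2 held the next 3, at chromosome 1, 40707796 to 40710114 (52.8-fold), 40764177 to 40765475 (44.8-fold, 40.4 to 49.4) and 40712527 to 40713972 (43.1-fold, 38.9 to 47.7), all inside the gene. The interior region of Slc12a3 followed with 41.4-fold at chromosome 8, 94353468 to 94355355. The region of Slc12a7 with 38.7-fold, at chromosome 13, 73763041 to 73765276, coincides with its listed start, which lies inside the outer bounds of the gene. At chromosome 14, 14632378 to 14633990, a region 69.7 kb outside Slc4a7 had 38.3-fold (34.2 to 42.6), and Slc9a3r1 had 35.4-fold (31.5 to 39.6) at chromosome 11, 115165967 to 115167873. In all, 10 of the 302 regions lay within 1000 bp of a listed start of their own member, in 9 members, among them Slc26a3, Slc4a4 and Slc9a3.

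The reach of 100 kb left out 15 regions nearer to a member than to any other gene, of which the strongest had 15.2-fold. The farthest region counted lay 99.4 kb from Slc4a4 with 11.6-fold, and the nearest one left out lay 106.4 kb from Slc4a7 with 3.59-fold.

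On chromosome 12, Slc26a3 and Slc26a4 stand near each other with Cbll1 between them. Slc26a4 encodes pendrin, an anion exchanger of the inner ear, thyroid and kidney. Slc26a3 had 20 regions away from gene ends, 9 inside the gene and 11 between genes, and Slc26a4 had 8. Regions of 20-fold or more numbered 4 at Slc26a3 and 1 at Slc26a4. At the listed starts the values were 26.8-fold at Slc26a3 and 9.62-fold (7.68 to 11.9) at Slc26a4, and their intervals did not overlap. For the strongest summits in the gene or within 1000 bp, 26.8-fold (23.4 to 30.5) and 21.2-fold (18.3 to 24.5), the intervals overlapped. The strongest region given to Slc26a3, 31.7-fold (28.0 to 35.6) and outside the gene, lay above that interval of Slc26a4.

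On chromosome 1, Slc9a2 and Slc9a4 are direct neighbours. Slc9a2 had 21 regions, 4 of them of 20-fold or more, and Slc9a4 had 12, of which 1 reached 20-fold. The strongest summit in the gene or within 1000 bp was 52.8-fold at Slc9a2 and 28.6-fold at Slc9a4, with intervals that did not overlap. The 28.6-fold summit lies 0.70 kb outside the upper end of Slc9a4. A further one of 32.0-fold (28.3 to 36.0) lies 2.18 kb outside that end, on the side of Slc9a2. The lower outer end of Slc9a4 had 8.81-fold.

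**Figure D3:**
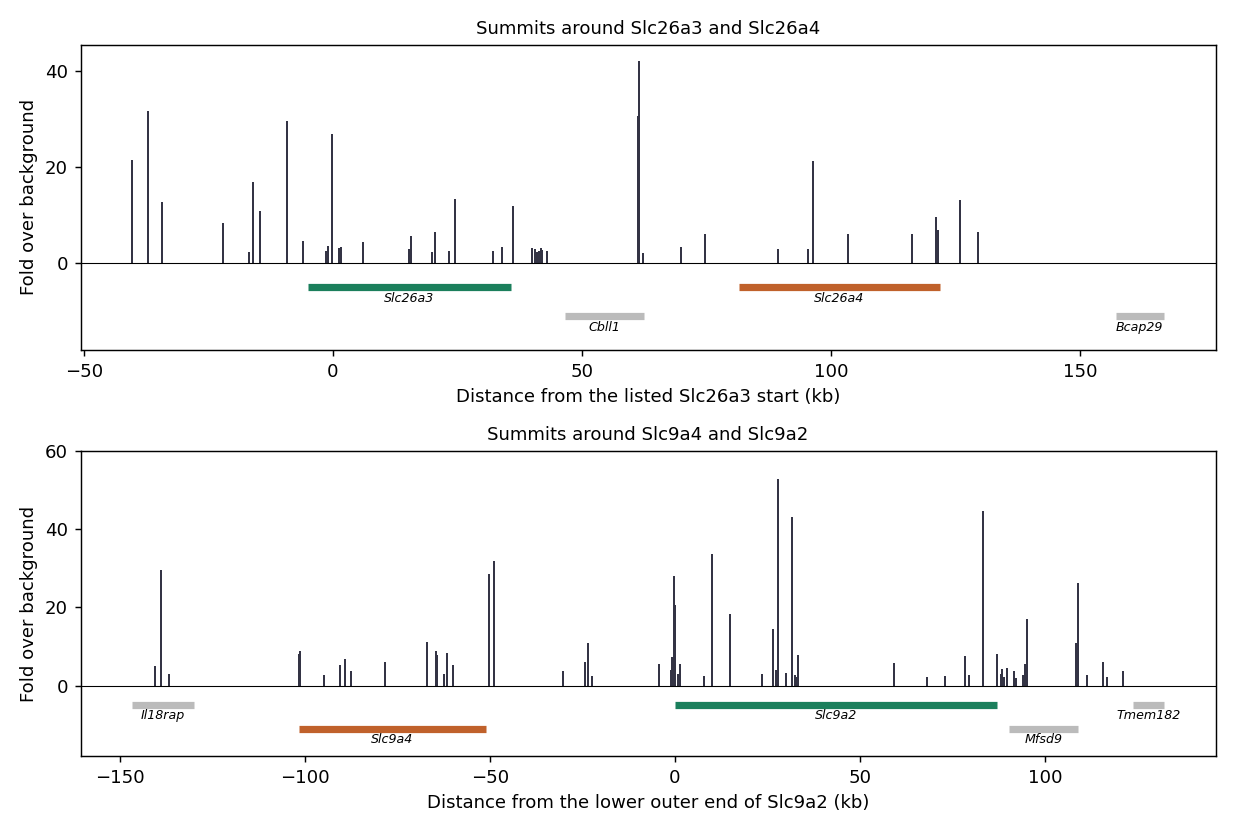
Summits (vertical lines, height in fold over background, linear axis) around Slc26a3 and Slc26a4 (upper panel) and around Slc9a4 and Slc9a2 (lower panel), by distance in kb. Bars below the zero line are genes: green for gut epithelium, orange for other organs, grey for genes of other families. Slc9a2 holds interior summits of up to 52.8-fold, and the tallest summit of the upper panel, at Cbll1, belongs to neither transporter.

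Partners of these carriers were open too. A list of 20 genes, made of chloride channels, carbonic anhydrases, kinases and adaptors that act with the transporters, had a summit in the gene or within 1000 bp in 20 of 20 (74.5% of all protein-coding genes), with a median of 38.9-fold (17.4-fold over all genes). The highest were Oxsr1, a kinase that switches on Slc12a2 (80.8-fold, 74.9 to 87.0), the chloride channel gene Clcn2 (66.5-fold, 61.2 to 72.2, but 29.3-fold away from other genes), Ahcyl1, whose product binds and activates Slc4a4 (62.4-fold, 57.2 to 67.9), and Chp1, a calcium-binding cofactor of the Slc9 exchangers (59.5-fold, 54.4 to 64.8, and 53.7-fold away from other genes). Cftr, the chloride channel of crypt cells, had 37.6-fold and 27 regions away from gene ends. Prkg2, a kinase that restrains Slc9a3, had 51.1-fold and 31 such regions. The lowest were Pdzk1, a scaffold of apical transporters (3.36-fold, near another gene), and Car4, a membrane-bound carbonic anhydrase (3.94-fold). The partner list was made with earlier results of these data known. Partners had a median length of 41.8 kb, against 17.3 kb over all genes, and a median of 12 summits, against 3. The part of either in the heights was not tested.

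Markers were read the same way as a check of the labelled tissue. Of 11 markers of colonic epithelium 11 had a summit in the gene or within 1000 bp, against 74.5% of all protein-coding genes. Their median was 32.8-fold, against 17.4-fold over all genes, although the goblet cell gene Muc2 had 2.90-fold and Lgr5 had 11.8-fold. The medians were 3.71-fold for 7 leukocyte markers, 5.80-fold for 8 fibroblast, endothelial and muscle markers, 8.70-fold for 5 neuron markers and 3.59-fold for 5 kidney tubule markers. A summit was called at 4 of the 7 leukocyte, 7 of the 8 fibroblast, endothelial and muscle, 5 of the 5 neuron and 4 of the 5 kidney tubule markers. The share over all protein-coding genes was 74.5%, so the presence of a summit alone did not set these lists apart. None was called at Ptprc, Cd3e, Cd79a, Col1a2 or Umod. The highest values in these lists were 25.7-fold at Spi1 and 21.8-fold at Cd68 among leukocyte markers, 16.3-fold at Col1a1, 32.7-fold at Syt1 among neuron markers and 6.72-fold at Lrp2 among kidney markers. The summit at Cd68 is near another gene, and away from it Cd68 had 4.99-fold. The part that other cell types might have in the values at Slc12a3 or Slc9a4 was not tested.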

How the data were processed

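For the ATAC-seq series of 4 libraries of mouse colonic organoids, 1 deposited narrowPeak list was used. Per the submitters' processing notes, Bowtie2 and MACS2 were used with mm10; their versions and thresholds, and which libraries entered the call, are not given in the sources. The authors' score was the −log10 q times 10 without its decimals, as checked in 100% of records. The deposited fold is a linear ratio over background, and the deposited −log10 q was at least 1.51. The 751 distinct fold values were whole numbers times 1 step in 100% of cases (tolerance 0.01), which gave a background of 7.63 counts, summit counts from 17 to 8197, and exact Poisson 95% intervals. These cover counting error only, since copies of a molecule are not independent, and the depth of each library is unknown.

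Records with the same bounds were joined, which gave 113404 regions from 157922 summits. Gene bounds came from RefSeq on GRCm38.p6 (all 98 listed genes were found), and starts and promoter sequences from a RefSeq table on the same build, which has 30 of the 42 members. Python 3.11.15, pandas 2.3.3 and scipy 1.17.1 were used. On simulated data, 200 of 200 summits planted in or within 1000 bp of 21631 genes were found again. Members, lists and the limits of 20-fold and 10 regions were chosen with earlier results of these data known. Of the 42 members 39 are named and plotted; values of the other 3 are not reported here one by one, but enter all counts and medians. Intervals are given for all gut epithelial genes, for those of the 4 strongest members of each other group that are named, the strongest regions and the 4 strongest partners. Reads shared between related gene copies were not tested. No comparison between the 4 groups was possible.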

Additional observations from a re-analysis of the deposited data

How the results depend on the processing

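No paired analysis was possible because each group has 1 library and the deposited values are not split by library. The count of members with a summit in the gene or within 1000 bp, 40, stayed within 1.5 times under every setting tried. Under all settings tried the median of gut epithelial genes remained above that of genes of other organs, for the strongest summit, the summit at an end and the number of regions. The median strongest summit of genes of other organs was 9.62-fold with no window outside the gene (all genes, 8.0-fold) and 14.1-fold without summits near another gene, a setting added after the data were seen. With 3 of the broadly used genes counted as gut epithelial, the broadly used genes had 17.2-fold. No setting tried moved a gene out of the gut epithelial group, so the dependence on that choice was not tested. At ends, the gut epithelial median was 32.5-fold within 5000 bp. That of broadly used genes was 12.8-fold within 2000 bp and 12.8-fold within 5000 bp, and that of genes of other organs 8.17-fold and 13.2-fold. With listed starts only, 22 members had a summit, and the medians were 16.1-fold for gut epithelial genes and 3.25-fold for genes of other organs, a difference of 12.9; fewer genes enter this setting. The 302 regions were 179 with a −log10 q of at least 10, which left a median of 2 in genes of other organs. The median number in gut epithelial genes was 6.5 with a reach of 25 kb, 6.5 with the ends of all annotated genes, and 22.5 when each summit was counted. The differences from genes of other organs were 2.5, 2.5 and 18.5, and broadly used genes had 2 with the ends of all annotated genes. Divided by gene length, also added later and with regions outside the gene still counted, the values per 100 kb were 8.26 for broadly used genes and 12.9 for genes of other organs. The difference between gut epithelial genes and genes of other organs was then 4.94. Of 660 values of single genes under other settings, 116 moved beyond their counting interval or by more than 1.5 times. Of 108 counts, group medians and differences under other settings, 24 moved by the same limits. The unknown depth per library limits what a missing summit can mean.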
